A study of Mus musculus with 4 samples.

Results

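The genes described here encode the proteins of the cytosolic ribosome. They were chosen by name, as probes with a value on all 4 arrays whose platform symbol is Rpl or Rps followed by a number, Rplp0 to Rplp2 or Rpsa, with the Rps6k kinases left out and the probes of a gene averaged. This gave 61 genes of the 9153 named genes measured on all 4 arrays, 38 of the large subunit and 23 of the small subunit, 5 of them L or L1 paralogs. A single probe stood for 42 of them, and 19 had more than 1. A further gene, Rpl7, had values on the arrays of particle-free air only (0.25 and -0.08) and was left out.

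Each dual-colour array set lung RNA of BALB/cJ mice, an inbred strain, after sensitization and challenge with the egg white allergen ovalbumin against lung cDNA pooled from 6 control animals. Per the series design the controls were non-sensitized, and challenged animals and controls breathed the same air: particle-free air on 2 arrays, and air with UCP, an abbreviation the labels leave unexplained, on the other 2. In each air the challenged lung carried Cy5 on array 1 and Cy3 on array 2. The sources used here do not give age, sex or the time from challenge to tissue collection, nor do they say if both arrays of an air came from 1 animal or from different ones. P-values therefore measure only the spread between these arrays, which may be technical, and the control pool, 1 sample on each array, leaves out the spread among controls. Sensitization and challenge were applied together and cannot be told apart. All values are log2 ratios of challenged lung over control pool, so that 1 is a doubling; they say nothing of a gene's level, and one gene's ratio can be set beside another's while brightness cannot. The overall sign is likely only: it rests on the usual direction of such ratios and on 7 genes typical of allergic mouse lung (Arg1, Ccl8, Chil3, Itln1, Retnla, Slc26a4 and Tff2), with a median of 3.13, and 6 of them above 0 on all 4 arrays.

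The cytosolic ribosome translates messenger RNA. Its small subunit decodes the message and its large subunit joins amino acids, and each holds ribosomal RNA and many proteins that cells make in near-equal number. Genes for these proteins are among the most highly expressed in any growing or secreting cell, and their messages begin with a run of pyrimidines, the TOP motif, through which mTOR signalling controls their translation. Many of them have processed pseudogenes, so a probe can also bind transcripts of such copies. That share was not measured.

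Most ribosomal protein genes had a log2 ratio slightly above 0 in challenged lung, and none passed the test over all genes. The median averaged log2 ratio of the 61 genes was 0.38, a ratio of 1.31, where all named genes had a median of -0.01. Of the 61 genes 56 had an averaged log2 ratio above 0 and 5 below, and the range ran from -0.89 for Rpl36a to 1.36 for Rps13. All 23 small subunit genes had an averaged log2 ratio above 0, with a median of 0.47. The large subunit genes had 33 above and 5 below, with a median of 0.29. The difference between subunits was not tested, and it was widest on array 1 of UCP air. Small subunit medians were 0.32 and 0.27 in particle-free air and 0.805 and 0.31 in UCP air (arrays 1 and 2). Those of the large subunit were 0.27 and 0.12, then 0.44 and 0.34. Without array 1 of UCP air Rps27, Rps28 and Rps29 averaged -0.17, -0.27 and -0.30. Fewer cells of a type and less RNA per cell cannot be told apart in RNA of whole lung.

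The shift was present on every array. The members' median log2 ratio was 0.30 and 0.20 on arrays 1 and 2 of particle-free air and 0.63 and 0.32 on arrays 1 and 2 of UCP air, beside 0.01, -0.05, -0.02 and 0.03 for all named genes. In this order 45, 42, 58 and 49 of the 61 genes were above 0. Array 1 of UCP air stood highest, and the other 3 arrays lay close together.

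**Figure D1:**
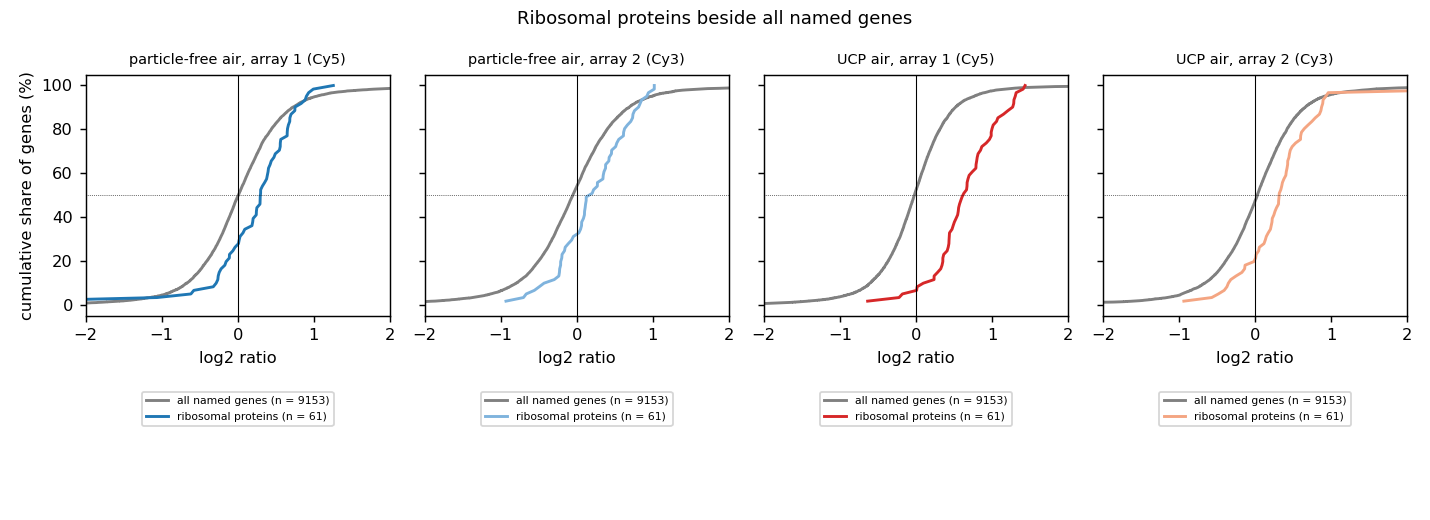
Cumulative share of genes (%) against log2 ratio of challenged lung over control pool, for the 61 ribosomal protein genes (coloured) and all 9153 named genes (grey), 1 panel per array; the axis is cut at -2 and 2. The coloured curve crosses 50% to the right of the grey one on every array, at 0.63 on array 1 of UCP air and between 0.20 and 0.32 on the others.

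Counts by direction put the same in single genes. Above 0 on all 4 arrays were 32 of the 61 genes, against 14.2% of all named genes, and below 0 on all 4 was 1, Rpl36a, against 14.1%. At least 1.2-fold higher on all 4 arrays were 16 of the 61 genes, 8 of each subunit, against 4.49% of all named genes, and at least 1.2-fold lower was Rpl36a, against 3.55%. By limma with Benjamini-Hochberg adjustment over 9153 genes, 0 of the 61 passed an adjusted p of 0.05 in the averaged effect, where 0.0983% of all named genes did, and the smallest adjusted p among them was 0.107. An unadjusted p under 0.05 held 25 with a higher ratio, against 8.06% of all named genes, and 1 with a lower one, against 7.56%. Only Rps13, Rpl24, Rpsa and Rps9 of the 61 had an averaged log2 ratio above 1. Ribosomal proteins are not independent of one another, so these counts are a description.

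**Figure D2:**
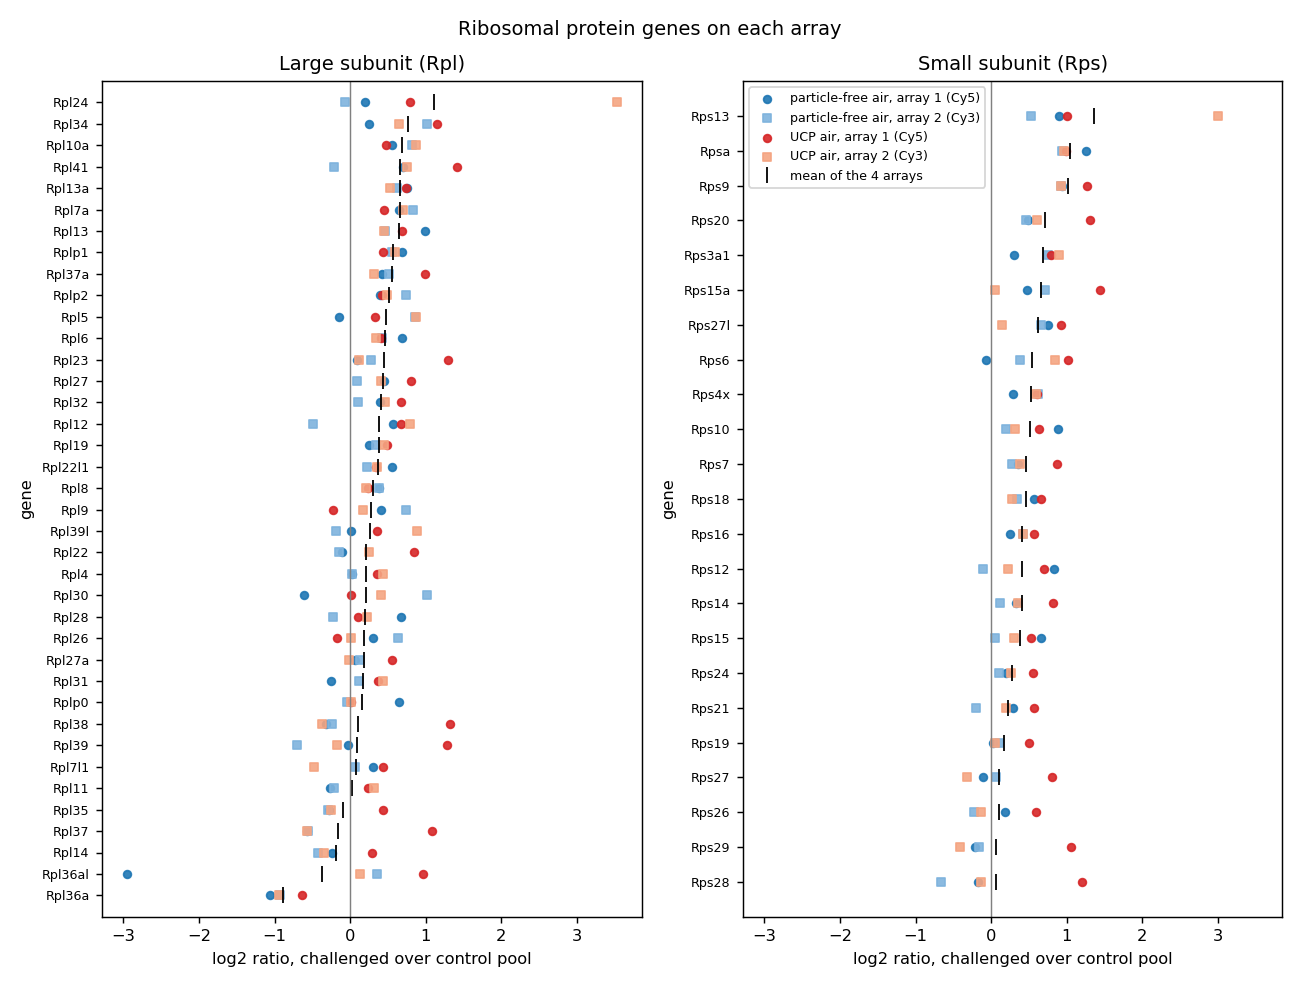
Log2 ratio of challenged lung over control pool of the 61 ribosomal protein genes on each of the 4 arrays, large subunit left and small subunit right, sorted by the mean of the 4 arrays (black tick). Rpsa and Rps9 sit near 1 on every array, Rpl36a below 0 on every array, and Rps13, Rpl24 and Rpl36al each have 1 array far from the other 3.

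The clearest values belonged to small subunit proteins. Rpsa, a protein of the small subunit also known as the laminin receptor, had log2 ratios of 1.26 and 0.94 in particle-free air and 0.99 and 0.96 in UCP air. The airs overlapped, with an average of 1.04 ± 0.15 (SD, n = 4 arrays), 2.05-fold, and a limma adjusted p of 0.107. Rps9, which sits near the entry of the messenger RNA, had 0.93 and 0.92 in particle-free air and 1.27 and 0.93 in UCP air. It averaged 1.01 ± 0.17 (SD, n = 4, limma adjusted p = 0.109), and its 2 probes averaged 0.64 and 1.39. Both genes thus lay near a doubling on all arrays without passing the threshold.

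Rps13 had the highest average, 1.36 ± 1.12 (SD, n = 4, limma adjusted p = 0.231), which rested on 1 array and 1 probe. Its ratios were 0.90 and 0.53 in particle-free air and 3.01 on array 2 of UCP air, where its 2 probes read 5.54 and 0.47. On array 1 of UCP air the probes read 1.36 and 0.64, and over all 4 arrays they averaged 2.09 and 0.63. Rpl24, a large subunit protein at the joint between the subunits, was alike in this, with 0.20, -0.07 and 0.79 on the first 3 arrays and 3.53 on array 2 of UCP air from its only probe (limma adjusted p = 0.367). Without that array the averages were 0.86 for Rps13 and 0.43 for Rpl24.

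Rps3a1, of the small subunit at the exit of the messenger RNA, had 0.30 and 0.76 in particle-free air and 0.79 and 0.89 in UCP air (0.69 ± 0.26, SD, n = 4, limma adjusted p = 0.182). Rps20, of the head of the small subunit, had 0.49 and 0.46 in particle-free air and 1.31 and 0.61 in UCP air (0.72 ± 0.40, limma adjusted p = 0.21). Rps6, the substrate of the S6 kinases and a readout of mTOR signalling when phosphorylated, had -0.06 and 0.38 in particle-free air and 1.01 and 0.85 in UCP air. Both of its UCP values lay above both particle-free ones, as for 16.9% of all named genes, and its difference between airs, 0.77 ± 0.30 (SE, limma), had an adjusted p of 0.979. In 1 of its 2 probes the airs overlapped, with 0.06 and 0.53 in particle-free air and 0.48 and 0.95 in UCP air. Rps4x, the X-linked form of the small subunit protein S4, was more even, with 0.29, 0.62, 0.61 and 0.60 on the 4 arrays.

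Large subunit genes with even values on the arrays were led by Rpl10a, Rpl13a and Rpl7a. Rpl10a, of the mobile L1 stalk where spent transfer RNA leaves, had 0.56 and 0.81 in particle-free air and 0.47 and 0.87 in UCP air (0.68 ± 0.19, SD, n = 4, limma adjusted p = 0.185). Rpl13a, known also for silencing of inflammatory messages after interferon gamma, had 0.75 and 0.61 in particle-free air and 0.74 and 0.53 in UCP air (0.66 ± 0.11, SD, n = 4, limma adjusted p = 0.164). Its 2 probes averaged 0.62 and 0.70, both above 0. Rpl7a had 0.65 and 0.83 in particle-free air and 0.44 and 0.70 in UCP air (0.65 ± 0.16, SD, n = 4, limma adjusted p = 0.171), and here too the airs overlapped. Rpl34, Rpl13 and Rpl41 averaged 0.76, 0.65 and 0.66.

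The stalk of the large subunit, which Rplp0, Rplp1 and Rplp2 form and which draws in the elongation factors, had even values for its outer proteins. Rplp1 had 0.68 and 0.55 in particle-free air and 0.44 and 0.60 in UCP air, and Rplp2 had 0.40 and 0.74 in particle-free air and 0.42 and 0.49 in UCP air. They averaged 0.57 ± 0.10 and 0.51 ± 0.16 (SD, n = 4 each, limma adjusted p = 0.198 and 0.232). Rplp0, the base of the stalk and a common reference gene in quantitative PCR, averaged 0.16 ± 0.33 (SD, n = 4), but its 2 probes opposed each other: one read -0.11, -1.02, -0.49 and -0.60 on the 4 arrays, the other 1.42, 0.93, 0.51 and 0.63. No direction can be read for Rplp0. Among the 19 genes with more than 1 probe, the probes' averages had the same sign in 14 and differed by more than 1 in 2, Rps13 and Rplp0.

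Rpl36a was the exception on the low side. It had -1.06 and -0.93 in particle-free air and -0.64 and -0.94 in UCP air, from 1 probe. All 4 arrays lay below 0, with an average of -0.89 ± 0.18 (SD, n = 4), 1.85-fold lower, and a limma adjusted p of 0.128. Its paralog Rpl36al, which encodes a near-identical protein, had -2.96 and 0.36 in particle-free air and 0.97 and 0.13 in UCP air. A single array thus set its negative average of -0.37 ± 1.76 (SD, n = 4, limma adjusted p = 0.79), which was 0.45 without array 1 of particle-free air.

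The other paralogs were set beside their parent genes. Rpl22l1 averaged 0.37 ± 0.14 (SD, n = 4) and was above 0 on all 4 arrays, with 0.55, 0.22, 0.34 and 0.35. Its parent Rpl22, which developing T cells require, had -0.11 and -0.15 in particle-free air and 0.85 and 0.25 in UCP air, but on array 2 of particle-free air its 2 probes read -0.69 and 0.39. Rps27l, known as a p53 target, had 0.75, 0.66, 0.92 and 0.15 (0.62 ± 0.33, limma adjusted p = 0.255), whereas its parent Rps27 averaged 0.11 ± 0.49 with 0.80 on array 1 of UCP air and at most 0.06 on the others. Rpl39l, a form of Rpl39 best known from testis, had 0.01 and -0.19 in particle-free air and 0.35 and 0.89 in UCP air. Rpl7l1, which despite its name is an assembly factor of the large subunit, lay between -0.48 and 0.44 with an average of 0.08. The probes may not tell a paralog from its parent in every case, and the differences within pairs were not tested.

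Promoter sequences of a few of these genes are given here. The promoter of each gene was taken from RefSeq's annotation of mouse build GRCm38.p6, which listed 54 of the 61 genes. Each sequence below runs from 100 bases before the annotated start to 20 bases after it, and capitals mark a run of 6 or more C or T near the start, and any match to CCGGAAG (bound by ETS factors) or AAGATGGC (part of the YY1 motif) on either strand. Rpsa, Rps9, Rpl13a and Rpl7a stand for the genes with even, positive ratios, Rpl36a is the one gene below 0 on all arrays, and Rpl38 and Rps27 stood out on 1 array, as described further on.
Rpsa, chr9:120127666-120127785, plus strand: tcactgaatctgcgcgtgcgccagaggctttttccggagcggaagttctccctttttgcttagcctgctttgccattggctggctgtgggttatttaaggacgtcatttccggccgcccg
Rps9, chr7:3703941-3704060, plus strand: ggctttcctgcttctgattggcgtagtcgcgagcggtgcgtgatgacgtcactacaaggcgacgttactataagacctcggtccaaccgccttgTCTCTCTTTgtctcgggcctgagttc
Rpl13a, chr7:45128726-45128845, minus strand: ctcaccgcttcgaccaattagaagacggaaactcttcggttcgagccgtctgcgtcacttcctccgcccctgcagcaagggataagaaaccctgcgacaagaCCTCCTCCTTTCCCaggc
Rpl7a, chr2:26910707-26910826, plus strand: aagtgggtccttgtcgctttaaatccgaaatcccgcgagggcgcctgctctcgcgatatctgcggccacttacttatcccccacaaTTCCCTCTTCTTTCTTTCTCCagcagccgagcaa
Rpl36a, chrX:134585554-134585673, plus strand: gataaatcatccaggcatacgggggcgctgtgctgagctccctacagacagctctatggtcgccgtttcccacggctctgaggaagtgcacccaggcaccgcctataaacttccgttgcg
Rpl38, chr11:114668480-114668599, plus strand: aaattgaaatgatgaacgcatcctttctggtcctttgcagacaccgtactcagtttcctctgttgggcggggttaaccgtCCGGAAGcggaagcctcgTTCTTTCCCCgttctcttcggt
Rps27, chr3:90213629-90213748, minus strand: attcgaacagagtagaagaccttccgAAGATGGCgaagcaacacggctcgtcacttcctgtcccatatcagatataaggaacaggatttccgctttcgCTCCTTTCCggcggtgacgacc

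In these stretches Rps9, Rpl13a, Rpl7a, Rpl38 and Rps27 carry a pyrimidine run at the start. Rpl38 also holds CCGGAAG and Rps27 AAGATGGC, and Rpsa and Rpl36a hold none of the 3. In the 300 bases searched for both motifs, Rpsa holds CCGGAAG and Rpl13a holds AAGATGGC, outside the printed stretch. Over the 54 genes, a run of 6 or more C or T touching the 30 bases around an annotated start was found in 37 genes (68.5%), against 41% of the 7411 arrayed genes in the table. CCGGAAG was found in the 300 bases of 23 genes (42.6%), against 18.1% of arrayed genes, and AAGATGGC in 5 genes (9.26%), against 5.11%. The median averaged log2 ratio was 0.38 for the 37 genes with the run and 0.43 for the 17 without, 0.38 for both the 23 genes with CCGGAAG and the 31 without it, and 0.21 for the 5 with AAGATGGC and 0.38 for the 49 without it. These differences were not tested. A match is a description of letters, not a site, and the annotated start may differ from the one used in lung.

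In particle-free air the members' median log2 ratio was 0.26, with 46 of the 61 genes above 0. Above 0 on both arrays were 36 genes, against 26.2% of all named genes, and below 0 on both were 10, against 29.5%. By limma 0 of the 61 passed an adjusted p of 0.05, against 0.0109% of all named genes, and an unadjusted p under 0.05 held 10 on the high side, against 5.58%, and 1 on the low side, against 5.7%. In UCP air the median was 0.49, with 56 genes above 0. Above 0 on both arrays were 47 genes, against 30.4%, and below 0 on both was only Rpl36a, against 30.1%. Here too 0 passed, against 0.0219% of all named genes, and an unadjusted p under 0.05 held 19 on the high side (4.45% of all named genes) and 1 on the low side (4.93%).

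The difference between the airs was not resolved. The members' median of UCP minus particle-free air was 0.25, with 44 genes higher and 17 lower in UCP air, but it was 0.01 without array 1 of UCP air. By limma 0 of the 61 genes passed for this difference, as did 0% of all named genes, and an unadjusted p under 0.05 held 0 as well, against 1.79% of all named genes on the high side and 2.15% on the low side. Both UCP arrays lay above both particle-free arrays for 19 genes, against 16.9% of all named genes, and below both for 4, against 15.4%. Rpl11, which with Rpl5 and 5S ribosomal RNA restrains the p53 ligase Mdm2, was among the former, with -0.26 and -0.21 in particle-free air and 0.24 and 0.32 in UCP air. Its 2 probes averaged -0.32 and 0.36. Rpl5 itself had -0.15 and 0.85 in particle-free air and 0.33 and 0.87 in UCP air, so its airs overlapped. Lower in UCP air were Rpl9, with a difference of -0.59 ± 0.31, and Rpl26, with -0.55 ± 0.28 (SE, limma adjusted p = 0.979 each), with Rpl9 at 0.41 and 0.73 in particle-free air and -0.22 and 0.17 in UCP air.

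Array 1 of UCP air held a group of genes that stood apart from their values elsewhere. On that array 14 of the 61 genes were higher than on any other array by more than 0.5, against 3.35% of all named genes. The same count was 1 for each array of particle-free air (7.9% and 6% of all named genes) and 3 for array 2 of UCP air (5.3%). The 14 genes were chosen by this rule after the values were seen. On array 1 of UCP air they had a median of 1.14, and on the others -0.14, -0.19 and -0.15 (arrays 1 and 2 of particle-free air, array 2 of UCP air). The remaining 47 genes had medians of 0.38, 0.34, 0.56 and 0.40 on arrays 1 and 2 of particle-free air and 1 and 2 of UCP air.

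Of these 14 genes 7 were below 0 on each of the other 3 arrays in the average of their probes: Rpl37, Rpl38, Rpl39, Rps28, Rps29, Rpl35 and Rpl14. Rpl37 had -0.58, -0.56 and -0.57 on the other arrays and 1.08 on array 1 of UCP air, with 1.02 and 1.13 for its 2 probes there. Rpl38, known for its role in the translation of Hox messages, had -0.32, -0.24 and -0.37 on the other arrays and 1.32 on that array. Rpl39, which lines the exit tunnel, had -0.04, -0.70 and -0.17 beside 1.28. Rps28 and Rps29, both of the small subunit, had 1.21 and 1.06 there and values from -0.67 (Rps28) to -0.13 (Rps28) elsewhere, all below 0. A single probe of Rps28 read 0.19 on array 2 of particle-free air. No probe of Rpl35 was below 0 on all the other arrays. They reached 0.01 and 0.28 on array 1 of particle-free air and 0.12 on array 2 of UCP air. The Rpl35 probe that reached 0.01 read -0.106 on array 1 of UCP air, so it did not stand out there. A probe of Rpl14 left out for a missing value read 0.96 on array 2 of particle-free air and -0.075 on array 1 of UCP air. The other 7 were Rpl22, Rpl23, Rpl36al, Rpl41, Rps15a, Rps20 and Rps27. The 2 probes of Rpl22 read 1.28 and 0.42 on array 1 of UCP air, and the latter probe read 0.39 on array 2 of particle-free air.

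**Figure D3:**
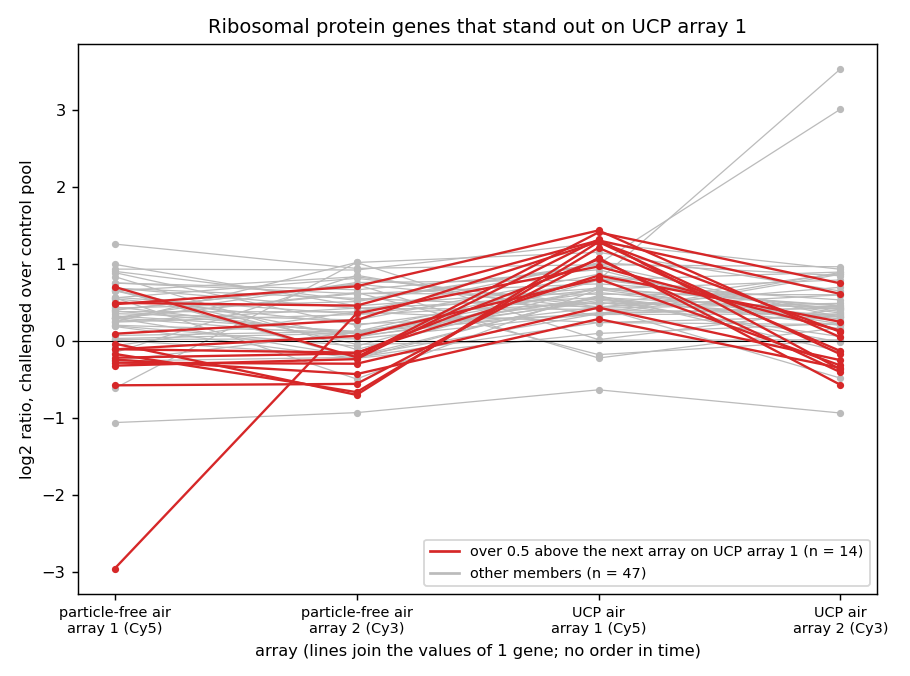
Log2 ratio of challenged lung over control pool of the 61 ribosomal protein genes on the 4 arrays, with a line for each gene that joins its values and has no order in time. The 14 red genes exceed their next highest array by more than 0.5 on array 1 of UCP air, where their median is 1.14; on the other arrays their medians lie between -0.19 and -0.14.

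The order of the 61 genes was alike on the other 3 arrays and not on this one. Across the 61 genes, Spearman's rho was 0.41 between the arrays of particle-free air and 0.43 and 0.54 between these and array 2 of UCP air. Array 1 of UCP air had rho of 0.10, 0.01 and 0.08 with the others. Across all 9153 named genes, array 1 of UCP air had rho of 0.31, 0.23 and 0.31 with the other 3, and those had 0.16, 0.21 and 0.33 among themselves. These correlations are across genes, which are not independent, and the 2 arrays of an air share the kind of control pool. In both airs array 1 carried Cy5 on the challenged lung, and the members' median of array 1 minus array 2 was 0.04 in particle-free and 0.29 in UCP air, beside 0.07 and -0.05 for all named genes.

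Other genes of translation were taken from 7 lists. Mitochondrial ribosomal proteins, which serve the separate ribosome of mitochondria, also numbered 61, with a median averaged log2 ratio of 0.12, 41 above 0 and 12 above 0 on all 4 arrays (32 of the 61 cytosolic ones, and 14.2% of all named genes). An unadjusted p under 0.05 held 2 of them on the high and 0 on the low side, and counts at that p here and for the lists that follow stand beside 8.06% higher and 7.56% lower among all named genes. Initiation factors had a median of 0.17 (31 genes, 2 higher and 3 lower at that p), with Eif2s3x, a subunit of the factor that carries the initiator transfer RNA, at 0.62 ± 0.22 and Eif3j1 at -0.63 ± 0.31 (SD, n = 4 each). Elongation and termination factors had a median of 0.05 (11 genes, 2 higher and 1 lower). In this list Eef1b2, which reloads elongation factor 1A, had 0.78, 1.02, 1.16 and 0.81 on the 4 arrays (0.94 ± 0.18, SD, n = 4, limma adjusted p = 0.127), while Abce1, which splits used ribosomes, had -0.85, -0.46, -0.91 and -1.01 (limma adjusted p = 0.142). Both kept to 1 side of 0 on all arrays, in opposite directions.

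A list of ribosome-associated proteins and other genes with known TOP messages had a median of 0.22 (16 genes, 5 higher and 1 lower at that p), with Ybx1, Vim and Naca at 0.71, 0.68 and 0.49 and the nucleolar chaperone Npm1 at -0.39. This list holds Eef1b2 too. Genes of ribosome assembly had a median of 0.09 (45 genes, 3 higher and 0 lower), RNA polymerase I and its factors 0.05 (10 genes, 0 and 0), and the mTOR and S6 kinase list -0.06 (13 genes, 0 and 0), with Rps6kb2, an S6 kinase, at -0.51 ± 0.48 (SD, n = 4). In these 7 lists 0 genes passed over all genes by limma. Their medians were between -0.06 and 0.22, beside 0.38 for the cytosolic ribosomal proteins and -0.01 for all named genes, and no test of these differences was made.

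**Figure D4:**
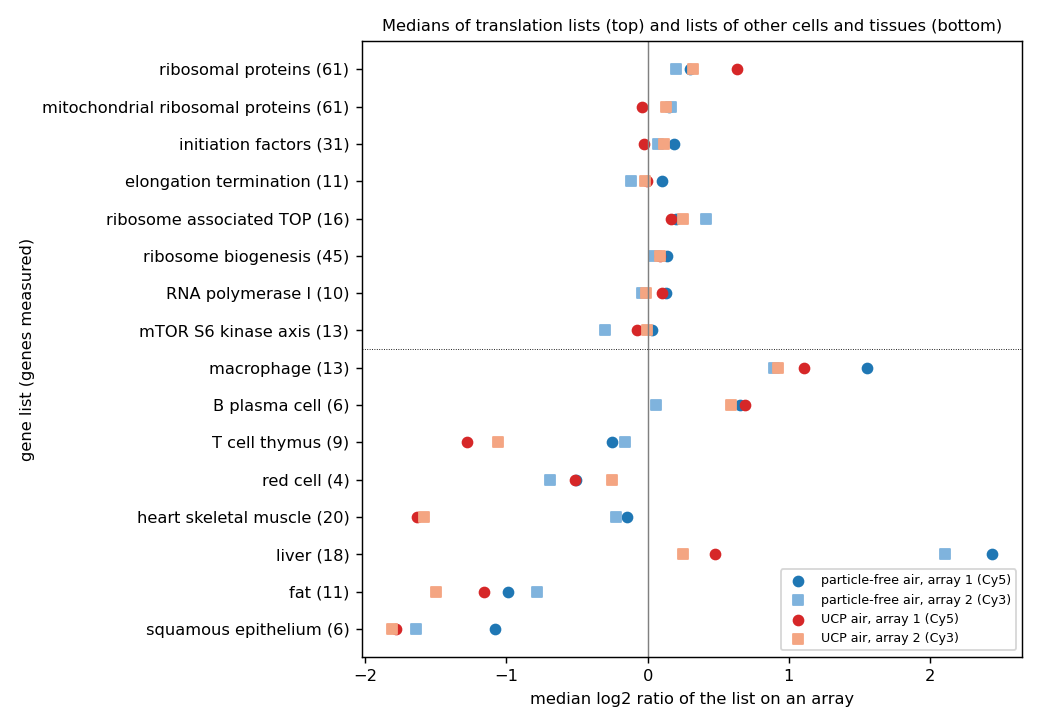
Median log2 ratio of challenged lung over control pool of each gene list on each array, with the number of genes measured in brackets; lists of translation above the dotted line and of other cells and tissues below it. Ribosomal proteins lie right of 0 on all 4 arrays (0.20 to 0.63). In the liver, heart and skeletal muscle, T cell and thymus, fat and squamous epithelium lists both UCP arrays lie on 1 side of both particle-free arrays. The same holds narrowly for cytosolic ribosomal proteins (0.30 on array 1 of particle-free air, 0.32 on array 2 of UCP air). It also holds for mitochondrial ones (0.15 and 0.13 on these arrays).

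Markers of other cells and tissues also lay away from 0 on these arrays. Macrophage genes had a median of 0.90 to 1.55 over the 4 arrays (13 genes, 9 higher and 0 lower where an unadjusted p under 0.05 is asked for, beside 8.06% and 7.56% of all named genes), B and plasma cell genes 0.06 to 0.69 (6 genes, 2 and 0) and red cell genes -0.69 to -0.25 (4 genes, 0 and 2). Heart and skeletal muscle genes had medians of -0.15 and -0.22 in particle-free air and -1.63 and -1.58 in UCP air (20 genes, 0 and 14). T cell and thymus genes had -0.25 and -0.16 in particle-free air and -1.28 and -1.06 in UCP air (9 genes, 0 and 5). Liver genes had 2.44 and 2.11 in particle-free air and 0.48 and 0.25 in UCP air (18 genes, 9 and 0). Fat genes had -0.99 and -0.78 in particle-free air and -1.16 and -1.50 in UCP air (11 genes, 0 and 8), and squamous epithelium genes had -1.08 and -1.64, then -1.78 and -1.81 (6 genes, 0 and 5). For UCP minus particle-free air an unadjusted p under 0.05 held 12 heart and skeletal muscle, 12 liver, 6 fat, 4 T cell and thymus and 1 squamous epithelium gene on the low side (2.15% of all named genes), and 1 heart and skeletal muscle gene on the high side (1.79%). By limma 0 genes of these lists passed an adjusted p of 0.05 for this difference. In the averaged effect 1 heart and skeletal muscle gene, Nppa, and 2 fat genes, Gpd1 and Car3, passed on the low side. Among all named genes 0.0983% passed in either direction. Nppa had 0.38 and -0.17 in particle-free air and -5.72 and -5.91 in UCP air. In UCP air 1 heart and skeletal muscle gene passed on the low side, against 0.0219% of all named genes in either direction. The part of these cells and tissues in the ribosomal protein ratios was not tested, and ratios give no level by which to check the tissue itself.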

How the data were processed

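RNA of challenged lung was hybridised against a pool from 6 control animals on 4 dual-colour arrays. Per the labels' protocols, RNA was isolated from individual organs, and 20 µg of it was turned into cDNA that received Cy3 or Cy5 by indirect labelling. The authors deposited log2 ratios per probe; scanner, background correction and normalization are not stated in these sources, and no brightness values or depth were used, so no dim probe was filtered. A plateau of capped ratios, above 0 where challenged lung carried Cy5 and below 0 where it carried Cy3, showed that all 4 deposited columns run the same way; the overall sign stays likely only. Of 20205 probes 13852 had 1 symbol in the platform annotation, 18160 had a value on all 4 arrays, and 12532 of these were named, for 9153 genes. The precision is limited by the number of arrays.

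Values were used as deposited, with probes averaged by gene. limma 3.58.1 (R 4.3.3) was fitted on all 9153 genes with 1 coefficient per air (2 residual and 2.37 prior degrees of freedom). The average of the airs, each air, and UCP minus particle-free air were tested two-sided, with Benjamini-Hochberg adjustment over all genes at 0.05. The fit was tested on simulated data of 9153 genes, where in the averaged effect it recovered 0% of genes changed by 1 and 66% of those changed by 2 on the log2 scale. The members, gene lists and motifs were chosen with earlier results of these data known. Named by rule were the 10 highest and 10 lowest members, the 5 with the largest difference between airs in each direction, members with probes over 1 apart, paralogs with their parents, the stalk proteins and Rpsa, and up to 4 genes per other list; other members named (such as Rpl13a, Rpl7a, Rpl13, Rps6, Rps4x, Rpl5, Rpl23 and Rpl38) were chosen after their values were seen. Alternatives were the centring, scaling and quantile normalization of arrays, the replicate block, the probe summary, missing values, the member definition and leaving out each array.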

Additional observations from a re-analysis of the deposited data

Results flagged for a closer look

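Rpl22 and Rpl11 had opposite directions in the 2 airs on every array: both were below 0 on both arrays of particle-free air and above 0 on both arrays of UCP air. The difference, UCP minus particle-free air, was 0.68 ± 0.33 for Rpl22 and 0.52 ± 0.26 for Rpl11 (SE), and neither passed (limma adjusted p = 0.979 each). Single probes did not all show this. On array 2 of particle-free air the 2 probes of Rpl22 read -0.69 and 0.39, so that the pattern was present in 1 of them. For Rpl11 it was present in neither: one probe read 0.43 on array 2 of particle-free air and the other -0.022 on array 1 of UCP air, and their averages were 0.36 and -0.32.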

How the results depend on the processing

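By limma 0 of the 61 genes passed an adjusted p of 0.05 in the 4 comparisons under the alternatives run for them; averaging the arrays of an air and an adjusted p of 0.10 were run for the averaged effect only, also with 0. An unadjusted p under 0.05 held 26 in the averaged effect, 25 higher and 1 lower, against 8.06% and 7.56% of all named genes. Deviations of same-numbered arrays had a correlation of 0.06 across genes. With 2 arrays per air this is a single value, and it cannot tell if same-numbered arrays share more than the dye. With the replicate block, which is also the dye, 0 genes passed. The block is balanced within each air, so it could not move a ratio, and the unchanged median of 0.38 tells nothing about the dye. The averaged median ran from 0.33 to 0.44, in particle-free air from 0.20 to 0.31 and in UCP air from 0.32 to 0.63. The difference between airs ran from 0.01 to 0.39 with 1 array left out, the lowest without array 1 of UCP air (0.0055). Without that array 8 genes were below 0 on the remaining arrays and 2 at least 1.2-fold lower. Counts with 1 array left out were 34 to 40 above 0, 1 to 8 below 0, 16 to 24 at least 1.2-fold higher and 1 to 2 at least 1.2-fold lower. Leaving out an array can only keep or raise such counts. At 1.5-fold 2 were higher on all 4. Shares of all named genes are not available for the counts of these settings.

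Of the 31 members named by rule, 21 kept their sign in all settings. The replicate block and the member definition could not change a sign. Where single probes were fitted, each gene was represented by its probe with the smallest p. Rpl11 is thus among the 21, though its 2 probes averaged 0.36 and -0.32. With 1 array left out Rpl35 ran from -0.27 to 0.0717, Rpl36al from -1.20 to 0.45, Rpl37 from -0.57 to 0.25, Rpl39 from -0.27 to 0.46, Rpl7l1 from -0.15 to 0.31, Rplp0 from -0.0166 to 0.33, Rps27 from -0.17 to 0.39, Rps28 from -0.27 to 0.40 and Rps29 from -0.30 to 0.43. The lowest values of Rpl39, Rpl7l1, Rps27, Rps28 and Rps29 came without array 1 of UCP air, the highest of Rpl35 and Rpl37 without array 2 of UCP air, and the highest of Rpl36al and lowest of Rplp0 without array 1 of particle-free air, where Rpl39 lay at -0.07 and Rps28 at -0.06. With probes on at least 3 arrays Rpl6 was at -0.0023, from a second probe. None of these passed, and adjusted p ran from 0.102 to 0.999 over these genes. Brightness over background was not analysed here, so the share of dim probes is unknown.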

Other observations

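Of the 94 ribosomal protein probes with a symbol that meets the rule, 8 lacked a value on at least 1 array and were left out. A second probe of Rpl6 read -2.69 on array 1 of particle-free air and 0.61 and -0.22 on the arrays of UCP air, while the probe used read 0.69, 0.42, 0.41 and 0.34. Another probe of Rps26, which sits at the exit of the messenger RNA, read 2.29 on array 1 of UCP air, where the 2 probes used read 0.52 and 0.66. A second probe of Rpl34 read 1.14 and 0.30 in UCP air, beside 1.15 and 0.65 for the probe used.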
